A study of Mus musculus with 2 samples.

Results

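The histone genes of mouse are described here in NIH3T3 cells, an immortalised fibroblast line, grown in medium with 10% serum and either left untreated (control) or given 10 µM thapsigargin for 3 h. Thapsigargin blocks the calcium pump of the endoplasmic reticulum and so provokes the unfolded protein response, in which protein synthesis is repressed. Cell lysates were spread over a 10 to 40% sucrose gradient, and RNA from polysomes (P, Cy3) was hybridised together with RNA from the free and monosomal fractions (FM, Cy5), so that log2 P/FM scores how much of an mRNA sits on polysomes and A, the mean log2 signal of both channels, tracks its abundance. Each condition was 1 array, made from 3 gradient preparations that were pooled before labelling. There is therefore no replicate check and no test between the conditions, and every difference below is given as a value. The members are all coding RefSeq mRNAs on the array whose symbol begins with Hist1h to Hist4h, H2af, H3f or H1f. There were 44 of them among 18743 coding mRNAs, read by 57 probes of 60 bases, and 38 of the 44 had A above 4.5 on both arrays, as did 10033 mRNAs in all. The 32 Hist genes are called replication-dependent and the other 12 replacement genes, and 29 and 9 of them passed that limit.

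Histone octamers of H2A, H2B, H3 and H4 wrap DNA into nucleosomes, and linker histone H1 binds where DNA enters and leaves. Replication-dependent genes lie in clusters, lack introns and are transcribed in S phase, and their mRNAs end in a conserved stem-loop bound by Slbp instead of a poly(A) tail. Replacement genes such as H3f3a and H2afz are expressed through the cell cycle and give ordinary polyadenylated mRNAs, while some Hist genes can also yield longer, polyadenylated transcripts. The labelling kit primes RNA from poly(A), so the array signal of a Hist gene covers only what could be primed, and its part in the values below was not tested.

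What the probes hold matters for reading them, because histone coding regions are nearly alike and because some probes lie at or past the end of the mature mRNA. The first set below is shown since the 6 H2B mRNAs above the limit on A gave one pattern. On build mm9, the Hist1h2bk probe lies at chr13:22127928-22127987, the Hist1h2bm probe at chr13:21814139-21814198 (both plus strand) and the Hist3h2bb probe at chr11:58767697-58767756 (minus strand), all inside the coding region. Capitals mark letters that differ from the Hist1h2bk probe. The Hist1h2bm probe matches it at 58 of 60 letters and the Hist3h2bb probe at 55 of the 58 that overlap.
Hist1h2bk: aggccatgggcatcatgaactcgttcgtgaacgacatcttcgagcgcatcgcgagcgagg
Hist1h2bm: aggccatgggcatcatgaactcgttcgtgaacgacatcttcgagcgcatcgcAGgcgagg
Hist3h2bb: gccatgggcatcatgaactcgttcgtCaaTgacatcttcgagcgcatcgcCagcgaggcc

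The H2A probes of Hist1h2aa (chr13:24026659-24026718, plus strand) and Hist1h2af (chr13:23626108-23626167, plus strand) share a run of 44 letters, and capitals mark where the latter differs. Hist1h2aa is known as a testis-specific gene, and its bright signal in fibroblasts was read by a probe of this kind.
Hist1h2aa: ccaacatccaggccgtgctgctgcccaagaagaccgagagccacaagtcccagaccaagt
Hist1h2af: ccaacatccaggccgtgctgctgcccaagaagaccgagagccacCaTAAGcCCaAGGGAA

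The last set holds the stem-loop, whose 16 letters are in capitals as far as each probe contains them. The Hist1h3a probe (chr13:23853756-23853815, minus strand) holds all 16 near its end, and the Hist1h2ab probe (chr13:23843392-23843451, plus strand) stops within them. The Hist1h2ae probe (chr13:23662489-23662548, minus strand) starts inside the stem-loop and runs on into sequence that the mature mRNA would lack. The 30 letters of each probe around the element are given.
Hist1h3a: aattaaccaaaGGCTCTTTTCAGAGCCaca
Hist1h2ab: gaaagttaaccaaaacaaaGGCTCTTTTCA
Hist1h2ae: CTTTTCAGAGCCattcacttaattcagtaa

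Of 28 probes that lie upstream in Hist genes, 14 shared a run of at least 20 letters or 85% identity with a probe of another member. Such values could be joint readings of several genes, which was not tested, and the genes of a family cannot be taken as independent of each other.

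On each array 43379 spots read transcripts, of which 42.5 to 46.3% were well above background per channel, and no spot was saturated. The 11 fibroblast markers passed the limit on A, and of 12 marker genes of other cell types only Cd3e and Tubb3 did. As substitutes for replicate error, spots of one probe had an SD of 0.10 for the change in log2 P/FM and different probes of one mRNA an SD of 0.32 (3438 mRNAs). For the 10 histone mRNAs with several probes the median of these SDs was 0.62, and single SDs ran from 0.055 (Hist1h2af) to 2.92 (Hist1h1d). The fraction of cells in S phase and the histone mRNA in each cell cannot be told apart in such bulk RNA. The median change over all 10033 mRNAs was -0.71 with these unnormalized signals, -0.15 after loess, -0.28 with the scanner software's processed signals and 1.84 after scaling to spike-in probes, so that signs depend on the scaling. Directions of classes and families are given with the scalings in which they turn, and the values of single genes are on the unnormalized scale.

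The 29 replication-dependent histone mRNAs centred on a log2 P/FM of 0.50 (median, -2.66 to 1.39) on the control array and of -0.12 (-1.59 to 1.29) after thapsigargin. For the 9 replacement mRNAs the medians were 0.76 and -0.61. Without H1foo, for which only a bound can be given, they ranged from -0.95 to 1.398 and from -2.31 to 0.54 in the other 8. Over all mRNAs they were 0.34 and -0.29. On this scale both classes lay above the general median in control cells, though with loess the replication-dependent median of -0.12 lay below the general 0.14. Under stress the replication-dependent median was above the general one in each of the 9 versions of the signals. The replacement median was below it except with processed signals and the scanner's log ratio (0.39 compared with 0.04 in both). Centring and spike-in scaling shift all mRNAs of an array alike, so they could not alter such an order. The scanner's log ratio repeats the processed signals.

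Log2 P/FM was lower under stress in 17 of the 29 and in 9 of the 9, against 70.7% of all mRNAs, while with spike-in scaling it was higher in 29 and 8 of them and with loess in 28 and 5. The median change in log2 P/FM was -0.57 for the replication-dependent mRNAs and -0.98 for the replacement mRNAs. It turned to 0.83 and 0.19 with processed signals, to 1.53 and 0.17 with loess and to 1.98 and 1.57 with spike-in scaling, and to 0.05 for the replication-dependent class with centred arrays. The class difference of 0.41 kept its sign in all 9 versions of the signals (0.30 to 1.36), although single mRNAs of the classes overlapped widely. Centring and spike-in scaling could not change this difference (0.41 in both), and processed signals and the log ratio gave the same 0.64. The classes lay closer when doubtful readings were left out. The replication-dependent median was -0.70 without the downstream probes described later, and the replacement median was -0.96 without H1foo. Relative to all mRNAs the replication-dependent change was 0.14, with -0.47 under normexp background correction and 1.68 under loess. Of the 29, 11 counted as translation sensitive (change of -0.8 or lower), which is 37.9% against a background of 47% of all mRNAs. Of the 9, 6 were sensitive, but one of these, H1foo, had a polysomal signal not well above background on either array. As inducible (control at or below 0 and change of at least 1) counted 6 of the 29, against 8.86% of all mRNAs, and none of the 9. Only 1 of 25 was inducible when the downstream probes described later were left out. As resistant (at least 0.8 on both arrays) counted only Hist1h1b, against 3% of all mRNAs.

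**Figure D1:**
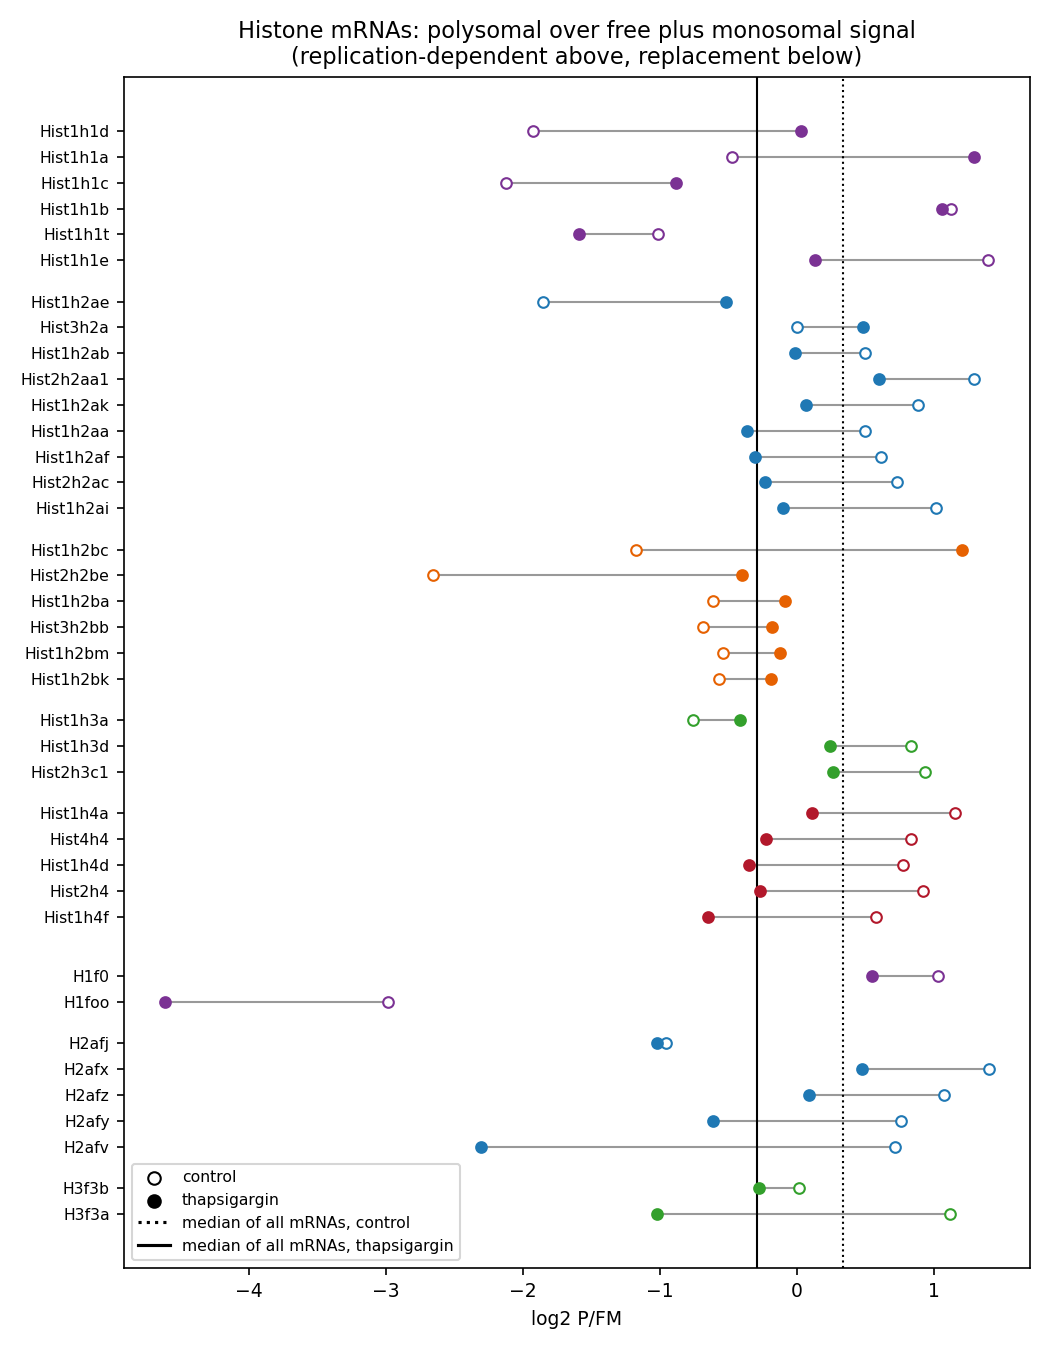
Log2 P/FM (x axis) of the 38 histone mRNAs with A above 4.5 on both arrays, in control (open) and thapsigargin (filled) cells, 1 array each; vertical lines are medians of all mRNAs. All 6 H2B mRNAs moved right and all 5 H4 mRNAs left on this unnormalized scale; H4 turned with loess and spike-in scaling, and in Hist1h1d, Hist1h2ae (control) and H1foo (both arrays) a P signal was not well above background.

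The signal of replication-dependent mRNAs was higher after thapsigargin. A was higher in 28 of 29, against 76.8% of all mRNAs, with a median difference of 0.85 compared with 0.37 over all. The median difference stayed higher than that of all mRNAs in each of 7 versions of the signals, by 0.46 to 1.31. Loess leaves A as it was and centring shifts all mRNAs alike, so those versions could give only the unnormalized 0.48. A was higher in 24 of 29 with normexp and with centred arrays, in 25 with processed signals and in 27 without background subtraction. On the unnormalized scale the exception was Hist1h1b, at 14.38 in control and 13.73 under stress. In 9 of the 29 the difference was at least 1, against 11.7% of all mRNAs. By probe it was at least 1 on 4 of 28 upstream probes (14.3%), near the 13.4% of all probes. It was at least 1 on 5 of the 6 downstream probes described later. For the replacement class the median difference in A was 0.15, and it turned to -0.08 with processed signals and -0.34 with centred arrays.

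Separating the channels showed where that signal lay. The polysomal signal was higher in 24 of 29 replication-dependent mRNAs, against 50.7% of all mRNAs, and the free plus monosomal signal was higher in 27, against 86.6%. Their median differences were 0.54 and 1.12 on the log2 scale, compared with 0.02 and 0.72 over all mRNAs. In replacement mRNAs the polysomal signal was higher in 3 of 9, with a median difference of -0.35, and the free plus monosomal signal in 9 of 9, with a median of 0.96. These channel values are unnormalized and depend on how much RNA each fraction gave.

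**Figure D2:**
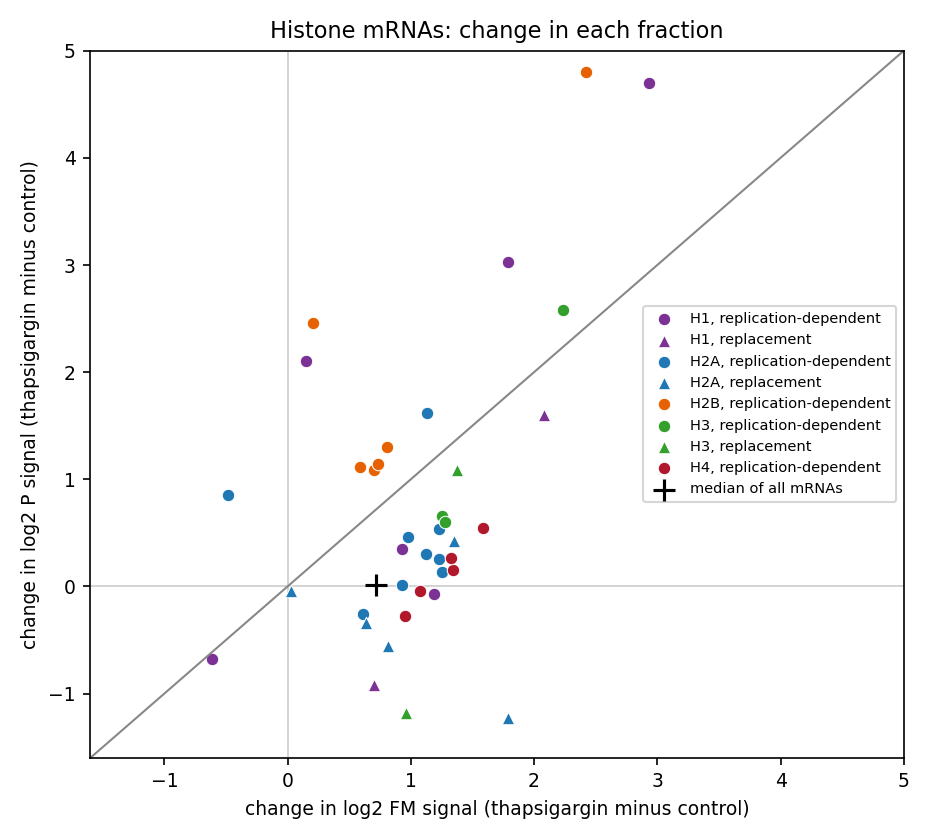
Change in log2 signal of the polysomal channel (y axis) against that of the free plus monosomal channel (x axis) for the 38 histone mRNAs, coloured by family, with circles for replication-dependent and triangles for replacement genes; points above the diagonal have a higher log2 P/FM under thapsigargin. All 6 H2B points lie above it and the 5 H4 points below it on this unnormalized scale, where loess and spike-in scaling place H4 above.

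H4 is encoded by many genes for one protein. The family medians of the 5 H4 mRNAs were 0.83 in control and -0.27 under stress, and each was lower by 1.04 to 1.23, although with loess and spike-in scaling all 5 were higher and with processed signals 3 were. All 5 counted as sensitive on the unnormalized scale. For Hist1h4a (NM_178192) the polysomal signal was 15.35 and 15.89 and the free plus monosomal signal 14.20 and 15.78 in control and stressed cells, which gave log2 P/FM of 1.15 and 0.11. Hist1h4f had 0.58 and -0.65, the lowest value of the family on each array. Hist2h4 had 0.92 and -0.27, and Hist1h4d 0.77 and -0.35. Hist4h4, which lies on chromosome 6 outside the large clusters, had 0.83 and -0.23. The Hist1h4d and Hist1h4f probes share a run of 50 letters, so the 5 values cannot be taken as 5 independent readings. The free plus monosomal signal was higher by 0.95 to 1.59 in this family and the polysomal signal differed by -0.27 to 0.54.

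H2B pairs with H2A in the nucleosome, yet its mRNAs gave the opposite pattern. All 6 lay below 0 in control cells, between -2.66 and -0.54, where 63.5% of all mRNAs were at or above 0. All 6 were higher under stress, by 0.38 to 2.38, and they remained higher in all 8 other versions of the signals. The median change of all mRNAs was -0.71 on the reported scale and -0.72 to 1.84 in the others. Most versions thus moved changes upwards, so a positive sign had little occasion to turn. Log2 P/FM was -0.57 and -0.19 for Hist1h2bk (NM_175665), -0.54 and -0.12 for Hist1h2bm, and -0.68 and -0.19 for Hist3h2bb. These are the 3 genes whose nearly identical probes are printed above. The testis gene Hist1h2ba had -0.61 and -0.09, with a probe 87.5% identical to that of Hist1h2bk over 40 letters. The 4 differences of 0.38 to 0.53 were larger than the SD of 0.32 between probes of one mRNA. They were smaller than the median SD of 0.62 over histone mRNAs, whose single SDs ran from 0.055 to 2.92. Hist1h2bc had a polysomal signal of 6.83 and 11.63 and a free plus monosomal signal of 8.004 and 10.42, hence -1.18 and 1.21. Hist2h2be had -2.66 and -0.40. The H2B change relative to that of all mRNAs was 1.23 (0.55 to 2.52 over the 9 versions), and H2B exceeded H4 by 1.64 (1.13 to 2.22). Centring and spike-in scaling could not alter either difference, and the log ratio repeats the processed signals. In all 6 the polysomal signal was higher by at least 1, against 16.7% of all mRNAs.

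The 9 H2A mRNAs had a median of 0.61 in control and -0.10 under stress. Of them 7 were lower and 5 were sensitive, while with loess and spike-in scaling all 9 were higher, with processed signals 8 and with centred arrays 3. Hist1h2ai had the largest drop in the family, from 1.02 to -0.10. Hist1h2aa had 0.50 and -0.36, Hist1h2af 0.61 and -0.31, and Hist1h2ak 0.88 and 0.07. All 7 of the lower mRNAs were above 0 in control cells. Hist1h2ab, whose probe ends in the stem-loop, had 0.50 and -0.02, and Hist2h2aa1 1.29 and 0.60. Hist2h2ac had 0.73 and -0.24. The exceptions were Hist3h2a and Hist1h2ae, which are taken up with the downstream probes.

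H3 was read by 3 mRNAs. Hist1h3d had 0.83 and 0.24, and Hist2h3c1 0.94 and 0.26, so both were lower by a little less than the sensitive limit, and both were higher with processed signals, loess and spike-in scaling. Hist1h3a (NM_013550), whose probe covers the whole stem-loop, had 7.43 and 10.01 in polysomes and 8.19 and 10.42 in the free plus monosomal fraction. Its log2 P/FM of -0.76 and -0.42 stayed below 0 on both arrays, while its A was higher by 2.41, more than in 99.7% of all mRNAs.

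Linker H1 genes differed most among themselves. Hist1h1e had 1.39 in control, the highest of its class, and 0.13 under stress, a difference of -1.26 that turned in 4 of 8 other versions. Hist1h1b had 1.13 and 1.06, a difference that turned in 5 of the 8, and was the only one of the 38 with less signal in both fractions, 14.94 and 14.26 in polysomes and 13.81 and 13.20 in the others. Hist1h1t, a testis gene, had -1.01 and -1.59, which turned with centred arrays and spike-in scaling. Hist1h1a (NM_030609) had a polysomal signal of 4.72 and 9.42 and a free plus monosomal signal of 5.199 and 8.13. Its log2 P/FM was therefore -0.48 and 1.29, higher by 1.77, and higher in all 8 other versions, most of which moved changes upwards in general. Its A was higher by 3.81, the most of the 38. Hist1h1c had -2.12 and -0.89.

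Among replacement genes, H2A variants were measured in 5. H2afv and H2afz encode the forms of H2A.Z, which marks promoters. H2afv (NM_029938, probe at chr11:6328173-6328232, minus strand) had 12.60 and 11.37 in polysomes and 11.89 and 13.68 in the other fractions, so that log2 P/FM was 0.71 and -2.31. The difference of -3.02 was lower than in all but 1.69% of mRNAs, and it kept its sign in all 8 other versions (-0.47 at the least). H2afz had 1.07 and 0.09. The pair thus differed in change by 2.03, with A almost level at 12.24 and 12.52 for H2afv and 13.46 and 13.61 for H2afz. H2afx, the variant phosphorylated at DNA breaks, whose mRNA is known to end in either a stem-loop or a poly(A) tail, had 1.398 and 0.47. H2afy, which encodes macroH2A with its large extra domain, had 0.76 and -0.61, and its 2 probes gave changes of -1.52 and -1.22. The differences of H2afz and H2afx turned in 4 of the 8 other versions and that of H2afy only with spike-in scaling. H2afj had -0.95 and -1.02, a difference that turned in 5 of the 8 other versions, but its 2 probes disagreed, with 0.25 and -0.72 for the one in the coding region and -2.16 and -1.33 for the distal one. The coding probe shares 29 letters with those of Hist1h2aa and Hist1h2af.

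Replacement H3.3 is encoded by H3f3a and H3f3b, which make the same protein. H3f3a (NM_008210) had 1.11 and -1.02, with changes of -1.93, -2.31 and -2.17 on its 3 probes, and turned only with spike-in scaling. H3f3b had 0.02 and -0.27, which turned in 5 of the 8. Its 3 probes gave changes of -1.36, -0.20 and 0.69 from the most upstream to the most downstream, so the small mean hides a spread larger than itself. The change of H3f3b exceeded that of H3f3a by 1.85. H3f3a differed little in signal, with A of 10.703 and 10.60, while A of H3f3b was 10.82 and 12.04. On the probe of H3f3b at base 521 the polysomal signal was 14.15 and 14.57, whereas on all 3 probes of H3f3a it was lower under stress.

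H1f0, the linker histone of resting and differentiated cells, had log2 P/FM of 1.03 and 0.54 and an A of 7.95 and 9.80, a difference larger than in 99.1% of all mRNAs. Its change in log2 P/FM turned in 6 of the 8 other versions, and its probes disagreed, with changes of -2.02, 0.02 and 0.56, but all gave a higher A, by 1.65 to 2.03. H1foo, the oocyte form, had a polysomal signal not well above background on both arrays, so its log2 P/FM was at most -2.48 in control and at most -3.45 under stress and no change is given.

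The change in log2 P/FM was more negative among brighter mRNAs in general, so histone mRNAs were set beside equally bright ones. Among the 255 mRNAs with a mean A of 13 or more, the median change was -1.99 and 217 were sensitive. The 19 replication-dependent mRNAs in that range had a median change of -0.86, with 11 sensitive, and a median difference in A of 0.74 compared with 0.03. The 5 H4 mRNAs, at -1.23 to -1.04, were therefore all less negative than the median of equally bright mRNAs. These 19 are part of the 255, and many of their probes could read several genes at once. Replacement mRNAs went both ways. H2afz, the only one at 13 or more, had -0.98, and the 4 at 11 to 13 had a median of -0.61 compared with -1.71 over all. At 9 to 11 H3f3a had -2.14 compared with -1.26, and the 2 at 7 to 9 had a median of -0.93 compared with -0.67.

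**Figure D3:**
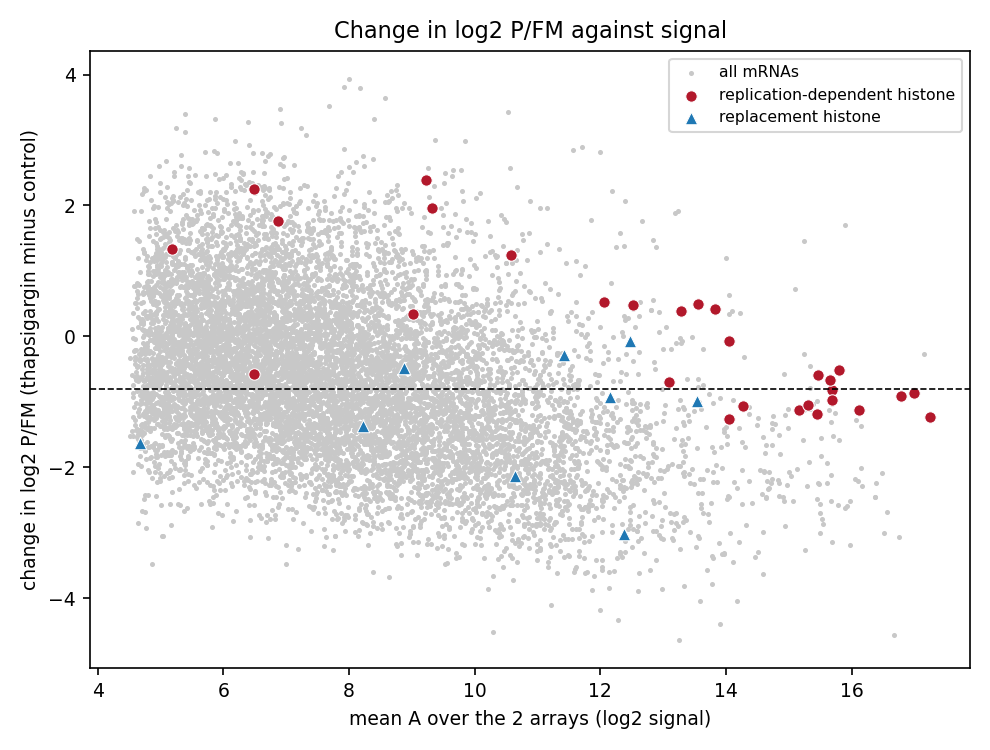
Change in log2 P/FM (y axis) against mean A of the 2 arrays (x axis) for all 10033 mRNAs (grey), replication-dependent (red circles) and replacement (blue triangles) histone mRNAs; the dashed line is the sensitive limit of -0.8. Unnormalized signals; most red points at a mean A of 13 or more lie above the bulk of the grey ones, whose median there is -1.99.

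Position within the transcript split the replication-dependent genes. Probes that began at base 500 or later of the listed transcript (base 800 for H1) are called downstream here, a limit set after the values were seen, and these lie at or past the usual mRNA end. All 28 upstream probes passed the limit on A, and 6 of 9 downstream probes did. For the upstream ones the medians were 0.66 in control and -0.10 under stress, with 13 sensitive (background over probes 45.2%) and 1 inducible. The 6 downstream ones had medians of -1.99 and -0.20, and all 6 were inducible, against a background of 11% over probes. Their change was 1.24 to 2.38 on the 4 probes measured in both channels and at least 1.33 and at least 3.70 on the other two, and their A was higher in all 6 (77.9% of all probes), by a median of 2.02. Downstream probes were also poorer in G and C, at 35 to 45% compared with 40 to 75%, and dimmer. The part of base composition and brightness in the difference was not tested.

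Within one gene the contrast was as large. On the coding probe of Hist1h1d (chr13:23647452-23647511, plus strand) log2 P/FM was 0.15 and 0.04. On its distal probe, 1751 bases further on at chr13:23649203-23649262, the polysomal signal was not well above background in control, at 3.42, and 7.22 under stress, against a free plus monosomal signal of 7.43 and 7.21. Its log2 P/FM was thus at most -3.69 in control and 0.01 under stress, higher by at least 3.70. The coding probe reads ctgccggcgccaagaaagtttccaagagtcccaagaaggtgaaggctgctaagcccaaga and is printed to mark which of the pair lies in the gene body. On Hist3h2a, the coding probe (chr11:58768387-58768446) gave 0.67 and -0.05 and the one 567 bases further on gave -0.67 and 1.02. For the distal Hist3h2a probe the polysomal signal was 7.99 and 11.08. Gene means of these 2 mRNAs therefore average opposite readings.

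Other downstream probes belonged to genes without an upstream one. Hist2h2be, Hist1h2bc and Hist1h1c are given above. Hist1h2ae, whose probe runs past the stem-loop, had a polysomal signal of 4.16 in control, not well above background, and 5.01 under stress, with 6.01 and 5.53 in the other fractions. Its change was at least 1.33. Leaving out all downstream probes, a choice made after seeing the data, moved the class change from -0.57 to -0.70, left 11 sensitive mRNAs and lowered the inducible ones from 6 to 1. For H2B the median change was 0.51 over 6 genes and 0.46 over the 4 read upstream, whose probes are alike and whose values were 0.38 to 0.53. The larger H2B differences, 2.25 and 2.38, both came from downstream probes.

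Distance along the transcript bore on other genes as well. In 2672 mRNAs with probes at least 200 bases apart, the change on the downstream probe was higher than on the upstream one by a median of 0.31 (5th to 95th percentile -0.69 to 1.88), and by at least 1 in 22%. The difference was 2.40 for Hist3h2a, 2.59 for H1f0, 2.05 for H3f3b and 1.80 for H2afj, and for H3f3a, H2afy and Hist1h2af it was -0.24, 0.30 and 0.078. Beside the pairs of all mRNAs, the values of Hist3h2a, H1f0 and H3f3b lay above the 95th percentile. Those of H2afj and of the last 3 lay between the 5th and the 95th. The SD of 0.32 between probes of one mRNA is no measure of such differences between 2 distant probes. The 0.62 for histone mRNAs was built from these same probes, so it gives no separate yardstick here.

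**Figure D4:**
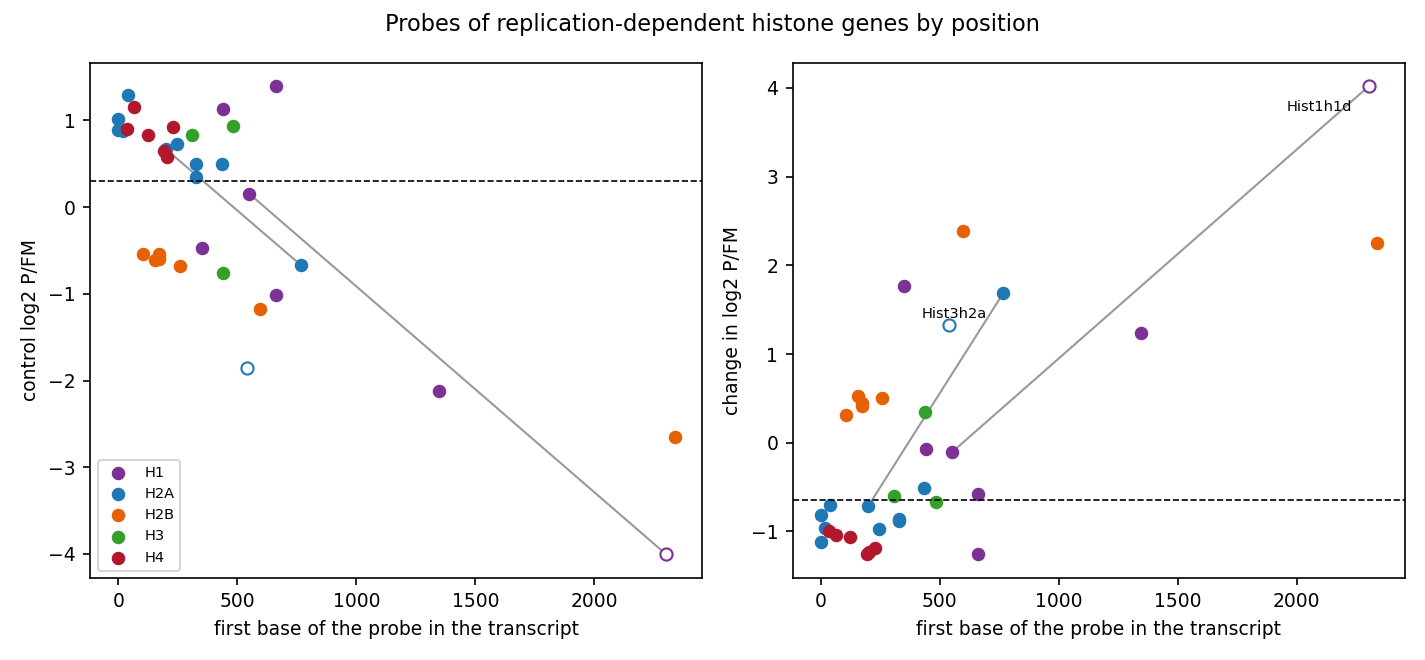
Control log2 P/FM (left) and change in log2 P/FM under thapsigargin (right) of the 34 replication-dependent histone probes with A above 4.5 on both arrays, against the base at which the probe begins; lines join the probes of Hist1h1d and Hist3h2a, open circles had a control P signal not well above background, and dashed lines are medians of all probes. The 4 downstream probes with filled circles have changes of 1.24 to 2.38, the open ones are at least 1.33 (Hist1h2ae) and at least 3.70 (Hist1h1d, drawn at its measured ratio), and the upstream H2B probes (orange) lie above the others near them; unnormalized signals.

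Under other processing the signs of H2A, H3 and H4 changed and so did the order of H1 and H2B, whose median changes were 0.58 and 0.51 on the reported scale and 1.66 and 2.29 with loess. The H2B median was above the H4 median in all 9 versions, though centring and spike-in scaling could not alter that order. The H4 median change was -1.12 on the reported scale, 0.02 with processed signals, 1.17 with loess and 1.43 with spike-in scaling, while that of H2B was 0.51, 2.24, 2.29 and 3.06.

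**Figure D5:**
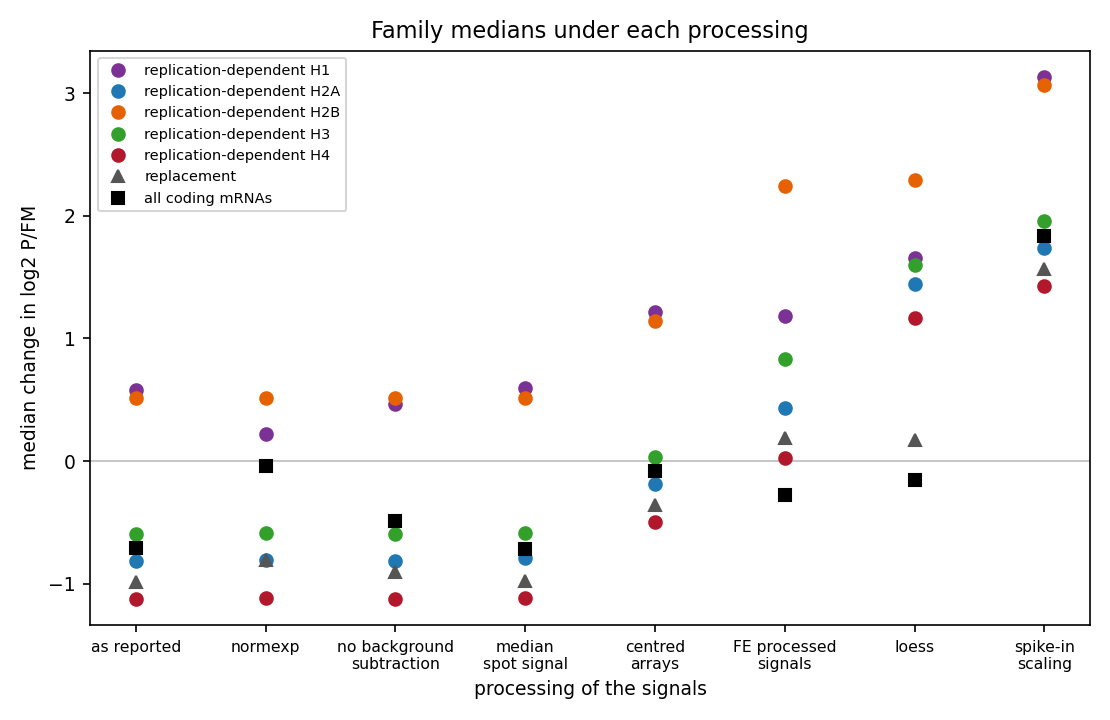
Median change in log2 P/FM (y axis) of each replication-dependent family, of the replacement genes and of all mRNAs under 8 ways of processing the signals (x axis). H2B is above 0 in all of them, whereas H4, H2A, H3 and the replacement genes are below 0 on the reported scale and above it with processed signals, loess and spike-in scaling. Most alternatives also raise the median of all mRNAs, so a median above 0 had little occasion to turn.

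Promoters were compared for the 38 members found in the RefSeq promoter table (GRCm38.p6), over 250 bases before the start and on both strands. CCAAT was present in 88.9% of 27 replication-dependent genes, 54.5% of 11 replacement genes and 37.5% of 27025 genes in all. TATAAA was present in 55.6%, 9.09% and 14.3%. The octamer ATTTGCAT, known as the element of H2B promoters that Oct-1 binds, was in 37.0%, 9.09% and 1.81%, and by family in 4 of 5 H2B and 6 of 10 H2A genes but in none of the 6 H1, 2 H3 and 4 H4 genes. H2A and H2B genes often share one bidirectional promoter, so these counts overlap. CCAAT was in all 5 H2B and all 10 H2A genes. Among measured H2A genes, the octamer was in Hist1h2aa, Hist1h2ab and Hist2h2ac, which were lower under stress. It was also in Hist1h2ae and Hist3h2a, which were higher and were read wholly or partly by downstream probes. Hist1h2af, Hist1h2ai, Hist1h2ak and Hist2h2aa1, all lower, lacked it. A link between the octamer and the change was not tested. Hist1h2bc, Hist2h2be and Hist3h2bb were not in the promoter table, and Hist1h2be was below the limit on A. The octamer, in capitals, is shown for the 4 H2B genes that held it, at chr13:22035780-22035809 (Hist1h2bk), chr13:21722008-21722037 (Hist1h2bm), chr13:23934302-23934331 (Hist1h2ba) and chr13:23586019-23586048 (Hist1h2be).
Hist1h2bk: catttcactttATTTGCATacgaagttcta
Hist1h2bm: ctctcgtctctATTTGCATaacagcgtgta
Hist1h2ba: gaattccccttATTTGCATgcacccagcac
Hist1h2be: agtaagacttaATTTGCATaagactgccta

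Genes that serve the histone mRNAs were described by their counts beside those of all mRNAs, of which 47% were sensitive, 8.86% inducible and 3% resistant. Of 25 measured genes for 3′ end formation, translation and decay of histone mRNA, 11 were sensitive (44%) and 3 inducible (12%), with a median change of -0.72. The sensitive share was near that of all mRNAs. Slbp, which binds the stem-loop, had log2 P/FM of 1.05 and 0.85. Npat, the coactivator of histone transcription, had -0.96 and 0.14, and Casp8ap2 (FLASH), a factor of 3′ processing, had -0.85 and 0.32. Smg1, a kinase of mRNA decay, had -0.57 and 1.37. For Npat and Smg1 a probe signal was not well above background. At the other end were Rdbp, a subunit of the elongation factor NELF, with 1.52 and -1.31, the cap-binding subunit Ncbp2 with 2.42 and -0.19, and the U7 snRNP protein Lsm11 with 1.00 and -1.21.

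Of 29 histone chaperones and related factors, 15 were sensitive (51.7%) and 4 inducible (13.8%), with a median change of -0.85. The largest differences downwards were in Npm1 (0.32 and -2.56), Npm3 (0.47 and -2.39) and Rbbp4 (1.88 and -0.59, with a probe signal not well above background). The largest upwards were in Ubn2 (-1.29 and 0.98), Spty2d1 (-0.75 and 1.18) and Ep400 (-0.98 and 0.91). Of 31 S phase mRNAs, 14 were sensitive (45.2%), 11 resistant (35.5%) and 1 inducible (3.23%), with a median change of -0.66 and a median difference in A of 0.41. Rfc2 had 1.61 and -1.75, Rfc5 1.52 and -1.83, and Tyms 1.48 and -0.89, whereas Pola1 had -0.41 and 1.503, Rfc1 0.22 and 0.99, and Cdc6 0.80 and 1.54. The median difference in A was 0.70 for the 3′ end list and 0.46 for the chaperones, beside 0.85 for the replication-dependent histone mRNAs. The median changes of the 3 lists were above 0 with loess and spike-in scaling, at 0.16 and 1.83, 0.02 and 1.70, and 0.36 and 1.89 in the order given. They were also above 0 with processed signals, at 0.0033, 0.24 and 0.29, and with the scanner's log ratio. With normexp only that of the S phase list was above 0 (0.10). Cenpa, the centromeric H3 variant, had -0.49 and -1.58.

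The 6 members below the limit on A were Hist1h2ac, Hist1h2be, Hist3h2ba, H1fnt, H1fx and H2afy2. Hist1h2ac, Hist1h2be and Hist3h2ba were read only by downstream probes, and H1fnt is a gene of the testis. Their A was 2.41 to 4.44, and no change is given for them.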

How the data were processed

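Two-colour 60-base oligonucleotide arrays of control and thapsigargin-treated NIH3T3 cells were used, 1 per condition. Per the file headers, the deposited spot and background intensity values came from Agilent Feature Extraction 10.7.1 without normalization on probes placed on mm9. The same deposited files hold log10 ratios of Cy5 to Cy3, and the authors' value table holds log2 ratios of P to FM averaged per mRNA (both used as alternatives), and the authors' quality flags were used to drop 295 outlier spots (0.68%).

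The local background (median) was taken off each mean spot intensity, results below 0.5 were set to 0.5, spots and probes of an mRNA were averaged on the log2 scale, and mRNAs with A above 4.5 on both arrays were kept, after the study's methods. Python 3.11.15 and limma 3.58.1 in R 4.3.3 were used, and the steps were tested on simulated data. Promoter sequences and names were from RefSeq (43 of 44 members matched). A bound uses the higher of the lowest signal well above background and the probe's own.

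Members and lists were chosen with earlier results of these data known. Genes named are all measured replacement genes, the 4 brightest well-measured genes of each Hist family, the extremes of each class, 3 largest differences each way per list, and Slbp; others were named after their values were seen. Alternatives covered background correction, signal type, normalization, filters, unit and probe likeness.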

Additional observations from a re-analysis of the deposited data

How the results depend on the processing

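Of 138 values under 19 alternatives, 103 stayed within the spread used, 23 moved further and 12 changed sign. Without replicates that spread was the SD between probes of one mRNA, and 1.5 times for counts. Keeping outlier spots and averaging by gene symbol returned every value unchanged, and loess leaves A as it was. Part of the 103 is therefore no sign of stability. With processed signals, the replication-dependent medians were 0.96 for control log2 P/FM, 0.83 for its change and 0.47 for the change in A, with 0 sensitive; for replacement genes they were 0.36, 0.19 and -0.082, with 3 sensitive. The scanner's log ratio gave the same 0.96, 0.83 and 0 for the first class and 0.36, 0.19 and 3 for the second. Loess gave -0.12, 1.53 and 0 sensitive for the first, and 0.27 and 0.17 for the second. Centring gave 0.16, 0.055, 0.37 and 0 sensitive for the first, and 0.42, -0.36, -0.34 and 3 sensitive for the second. Spike-in scaling gave 0.90, 1.98 and 0 sensitive, and 1.16, 1.57 and 0 sensitive. Normexp gave 0.25 for the replacement control median, and counting probes gave 12 sensitive replacement probes of 17. Why the values moved was not tested. Without downstream probes, chosen after seeing the data, the class medians and the sensitive count of the replication-dependent genes stayed within the spread, while inducible mRNAs went from 6 of 29 to 1 of 25. No paired analysis was possible because each condition was a single array. Precision is limited by 1 array per condition, and a dim probe has only a bound.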

Other observations

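Histone-named features without a coding RefSeq accession were left out of the counts above. A probe for H1fx placed on an expressed sequence tag had polysomal signals of 13.998 and 11.91 and free plus monosomal signals of 14.41 and 15.65, hence log2 P/FM of -0.41 in control and -3.74 under stress, while the probe of the H1fx coding accession was below the limit on A. A further Hist2h2ac feature had 0.49 and -0.61, and H2afy3 had 1.08 and -0.10. Features of Hist2h2aa1, Hist1h2bp, Hist1h2al, H2afz and Cenpa on cDNA clones were not well above background in all channels.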
